A study of Brassica oleracea with 7 samples.

Results

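Callus and leaf of Brassica oleracea, the species of cabbage and its relatives, were compared by RNA-seq of poly(A)+ RNA. Genes entered the comparison where FPKM, a count of fragments scaled to gene length and library size, was 1 or more in callus, in leaf or in both. This took in 26925 of 39481 genes in the table. The measure was log2 of callus FPKM + 1 over leaf FPKM + 1, so a positive value is higher in callus, and a gene was called different where it reached 2 in either direction, that is 4-fold. The callus had been raised in culture in an illuminated box at 25 °C. The leaf came from greenhouse plants 7 weeks old, kept at 15 to 25 °C. Root and stem of the same age, flower buds 0.8 cm long, flowers on the day they opened and siliques 15 days after pollination serve as context. Each tissue was 1 library, and the labels name no cultivar, culture medium or tissue from which the callus was raised. Tissue, growth temperature and culture therefore cannot be told apart, and no difference has a replicate check.

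Callus is a mass of cells that divide in culture and lack the organised layers of an organ. In Arabidopsis, a relative of cabbage, callus on hormone medium is known to form along a path shared with root development. A mature leaf is built for photosynthesis, and transcripts of a small number of photosynthesis genes are known to make up much of its mRNA. No gene names accompany the IDs of the table, so these functions could not be followed here and the labelled tissues could not be checked against their defining markers. In whole tissue, fewer cells of a type and less RNA per cell cannot be told apart.

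The callus library was the shallower of the pair. From the width of the deposited intervals, gene models held 8480189 fragments in callus and 10595077 in leaf, within a range of 8459141 to 10598033 over the 7 tissues. Among values above 0, the median number of fragments was 74.0 in callus and 81.0 in leaf. The deposited interval of a value covers counting error only.

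More genes were higher in callus than in leaf, at 4-fold and at each larger fold tried. The callus side had 3103 genes past the 4-fold limit (11.5% of 26925) and the leaf side 1361 (5.05%). Together these were 16.6% of the genes compared. Callus had 69.5% of the 4464 genes. At 16-fold or more there were 718 genes for callus (2.67% of those compared) and 137 for leaf (0.509%), and at 64-fold or more 114 (0.423%) and 13 (0.0483%). The number for callus divided by the number for leaf was thus 2.28 at 4-fold, 5.24 at 16-fold and 8.77 at 64-fold. After trimmed mean rescaling, which lowered callus by 0.23 relative to leaf on the log2 scale, the 4-fold genes were 2667 for callus and 1635 for leaf, the 16-fold genes 606 and 166, and the 64-fold genes 86 and 15. Per fragment in gene models, a scaling chosen after the data were seen that raised callus by 0.17, the 4-fold genes were 3496 for callus and 1216 for leaf.

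**Figure D1:**
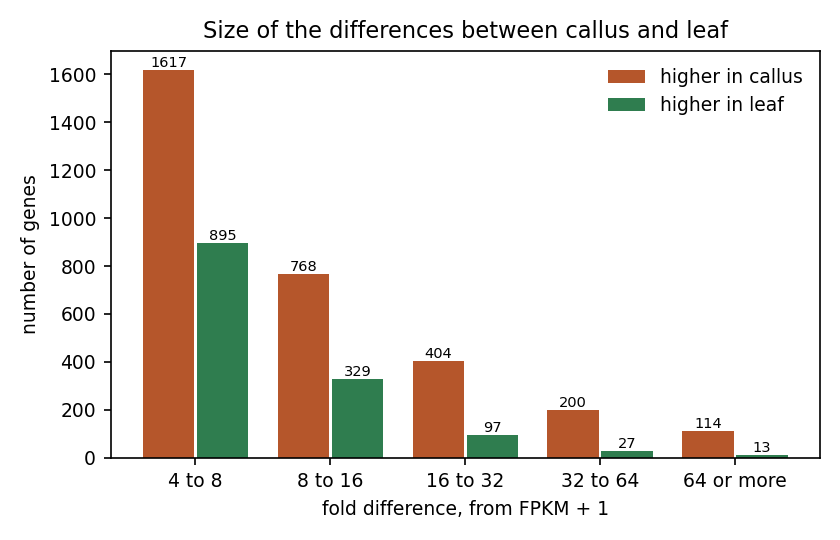
Number of genes by size of the difference (x axis, fold from FPKM + 1) that were higher in callus (brown bars) or higher in leaf (green bars), 1 library per tissue. The bars for callus stand above those for leaf in every class, from 1617 against 895 genes at 4 to 8-fold to 114 against 13 at 64-fold or more.

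Most genes differed little between callus and leaf. The log2 ratio had a median of 0.23 and quartiles of -0.60 and 1.1, and 56.1% of genes lay within 2-fold. The shift of the median went with the scaling, as it was 0.02 after trimmed mean rescaling. A gene could reach the 4-fold limit only with 3 FPKM or more in the higher tissue, which excluded 4402 of the genes compared. Of the 3 genes nearest to the limit on the callus side, those inside had 3.34 to 24.1 FPKM in callus and 0.0836 to 5.26 FPKM in leaf. Those just outside had 2.999 to 56.9 FPKM in callus and 0 to 13.5 FPKM in leaf. On the leaf side, the 3 genes just inside had 3.72 to 20.99 FPKM in callus and 17.9 to 87.0 FPKM in leaf, and the 3 just outside 1.15 to 4.86 FPKM in callus and 7.59 to 22.4 FPKM in leaf. All 4464 called genes had deposited intervals that did not overlap between callus and leaf. The 4-fold limit favours this outcome, and the share over all genes compared was not counted, so it lends the calls no further weight. The higher value rested on under 10 fragments in 5 of the genes for callus and 3 of those for leaf.

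**Figure D2:**
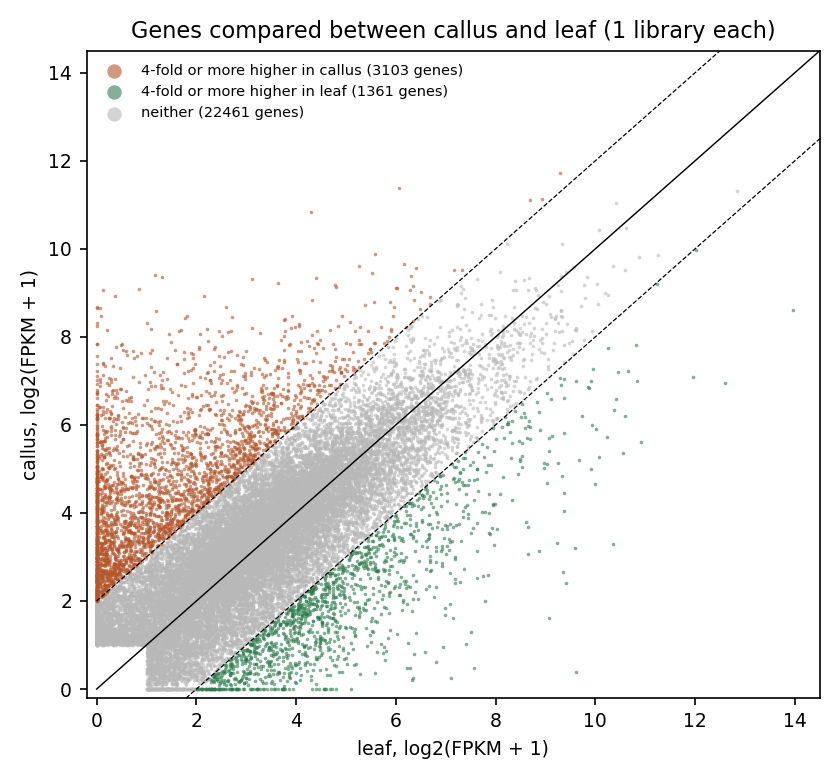
Level of each of 26925 genes in leaf (x axis) and callus (y axis), both as log2(FPKM + 1), 1 library per tissue; the solid line marks equal levels and the dashed lines 4-fold. The 3103 genes higher in callus (brown) include a column listed at 0 in leaf that runs up to 408 FPKM in callus, while the 1361 higher in leaf (green) include the single highest leaf value, 16016 FPKM.

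Differences towards callus were more often differences from a leaf level near 0. Of the 3103 genes higher in callus, 588 (18.9%) were listed at 0 in leaf and another 1036 (33.4%) were above 0 but under 1 FPKM there. Of the 1361 genes higher in leaf, 92 (6.76%) were listed at 0 in callus and 332 (24.4%) were above 0 but under 1 FPKM. Values of 0 were also more frequent in leaf over all genes compared, at 4.24% against 1.01% in callus. These shares include the called genes, and a gene at 0 in 1 tissue entered only through the other, so they are no separate reading. Over all 39481 rows, 31852 genes were above 0 in callus and 29495 in leaf. The part of this difference in the contrast between the called sets was not tested. The 588 called genes listed at 0 in leaf reached 408 FPKM in callus, with a median of 8.25 FPKM. The 92 called genes listed at 0 in callus reached only 33.1 FPKM in leaf, with a median of 5.595 FPKM. At the other end, 290 genes (9.35%) were higher in callus although leaf had 10 FPKM or more, and 242 (17.8%) were higher in leaf although callus had 10 FPKM or more. Over all genes compared, 21311 (79.1%) had 1 FPKM or more in both tissues, 3804 in callus alone and 1810 in leaf alone.

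The balance between callus and leaf changed with the level of the gene. Where the higher of both values was 3 to 10 FPKM, 10.5% of 8120 genes were higher in callus and 3.49% higher in leaf. The shares were 18.1% and 7.22% of 4541 genes at 30 to 100 FPKM, and 26.3% and 12.02% of 1223 genes at 100 to 300 FPKM. Among the 316 genes at 300 FPKM or more, 60 (19.0%) were higher in callus and 85 (26.9%) higher in leaf. The direction at the highest levels rested on the scaling. It was 43 for callus against 97 for leaf after trimmed mean rescaling and 49 against 93 after upper quartile rescaling, but 93 against 81 per fragment in gene models.

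**Figure D3:**
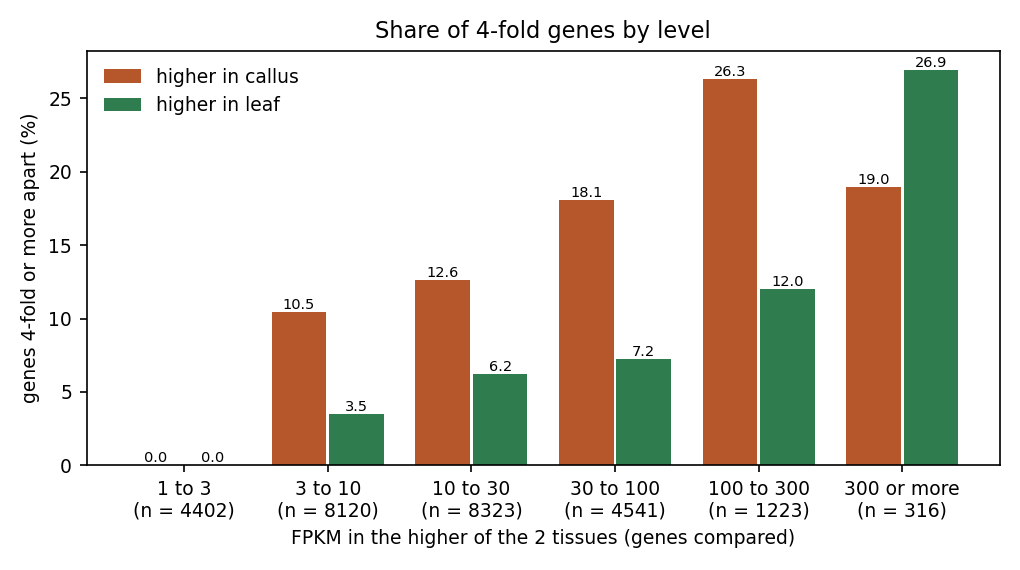
Share of the genes compared (y axis, percent) that were at least 4-fold higher in callus (brown) or in leaf (green), by the FPKM of the higher tissue (x axis), on the deposited scaling. The share for callus is above that for leaf from 3 to 300 FPKM, and below it (19.0% against 26.9%) at 300 FPKM or more; per fragment in gene models the counts at 300 FPKM or more turn to 93 for callus against 81 for leaf.

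Callus spread its transcripts over more genes than leaf did. Summed over the 10 most abundant genes, the share of all FPKM was 3.42% in callus and 7.85% in leaf, and over the 100 most abundant 11.7% and 20.2%. In the other tissues it was 4.84% (root) to 6.95% (flower) for 10 genes and 17.4% (bud) to 21.4% (stem) for 100. Callus was thus the lowest of the 7 tissues in both. Leaf was the highest for 10 genes but within the range of the other organs for 100. The lists of 100 of callus and leaf shared 28 genes, 28.0% of each. The 100 of callus had a median of 546 FPKM in callus and 182 FPKM in leaf, and 43 of them were at least 4-fold higher in callus. The 100 of leaf had a median of 226 FPKM in callus and 776 FPKM in leaf, and 48 were at least 4-fold higher in leaf. Shares of the sum carried by the 4-fold genes were closer to each other. The 3103 genes higher in callus made up 26.3% of the callus sum and 2.16% of the leaf sum, and the 1361 genes higher in leaf 2.18% of the callus sum and 23.1% of the leaf sum.

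The IDs named here are the 2 with the largest ratio in each direction, the 2 with the highest level among those listed at 0 in the other tissue, and the 2 most abundant in each tissue. Positions are on the scaffolds of the deposited table, whose build is not given in the sources used here. In each of these genes the locus was longer than the implied coding length, which implies introns.

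Bol019964 (Scaffold000127, 857800 to 859914; coding length 753 bp) had the largest ratio towards callus. It was at 538 FPKM in callus (deposited interval 522 to 553) and 0.0963 FPKM in leaf (0 to 0.289), a log2 ratio of 8.94 (8.67 to 9.11 from the interval bounds). The leaf value was 1 fragment, so the plain ratio of 5584 has an exact 95% counting interval from 1002 to 220596. Root was the next tissue at 58.7 FPKM, while stem and silique had 4.28 and 4.03 FPKM, flower 0.0960 FPKM, and bud was listed at 0.

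Bol015846 (Scaffold000160, 151111 to 152852; coding length 1002 bp) was the next by ratio and the most abundant in callus of the genes listed at 0 in leaf. It was at 408 FPKM in callus (397 to 419), where 3 fragments in leaf would have been 0.217 FPKM. Callus was thus at least 1879.6-fold higher. Root had 18.2 FPKM, silique 7.64, bud 2.996, stem 1.02 and flower 0.217 FPKM. Bol044245 (Scaffold000003_P2, 1348360 to 1352391; coding length 1095 bp) was also listed at 0 in leaf and had 405 FPKM in callus (394 to 415), at least 2037-fold above the 0.199 FPKM of 3 fragments. Here root had only 0.734 FPKM and the highest other tissue was silique at 7.25 FPKM.

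Towards leaf, Bol020349 (Scaffold000123, 416098 to 418252; coding length 1050.0 bp) had the largest difference. It was at 0.307 FPKM in callus (0 to 0.613), on 4 fragments, and at 778 FPKM in leaf (763 to 792). The log2 ratio was -9.22 (-9.63 to -8.89), and leaf over callus was 2535 with a counting interval from 989.8 to 9306. Silique was the next tissue at 89.3 FPKM, bud had 11.3, flower 9.37, stem 4.19 and root 0.139 FPKM. Bol004398 (Scaffold000325, 383361 to 385595; coding length 468 bp) was at 2.06 FPKM in callus (0.873 to 3.26) and 540.2 FPKM in leaf (522 to 558), a log2 ratio of -7.46. Bud had a higher level than leaf, 974 FPKM, and silique had 349.6 FPKM, flower 177, stem 71.0 and root 0.468 FPKM. In both genes callus and root were the lowest tissues.

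The genes listed at 0 in callus were of lower level. Bol045293 (Scaffold000001_P2, 1387861 to 1390756; coding length 2262 bp) was at 33.1 FPKM in leaf (31.0 to 35.2), at least 310.0-fold above the 0.107 FPKM that 3 fragments would give in callus. It was also listed at 0 in root and reached 5.08 FPKM in flower. Its locus overlaps a neighbour, and since no step that marks strand is named, fragments of the neighbours cannot be told apart. Bol025416 (Scaffold000088, 1515737 to 1516610; coding length 384 bp) was at 27.0 FPKM in leaf (22.5 to 31.5), at least 42.9-fold above the 0.629 FPKM of 3 fragments in callus. Root and silique were also at 0, and stem, the highest of the other tissues, had 0.954 FPKM.

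The most abundant callus gene, Bol038972 (Scaffold000018, 140126 to 140449; coding length 207 bp), was abundant in most tissues. It had 3360.4 FPKM in callus (3288 to 3433) and 627 FPKM in leaf (597 to 656), a log2 ratio of 2.42. Silique had 2261 FPKM, stem 1485, bud 924, flower 578 and root 73.8 FPKM. Bol015939 (Scaffold000159, 31997 to 32784; coding length 351 bp) stood further apart. It had 2659 FPKM in callus (2609 to 2708) and 65.5 FPKM in leaf (58.1 to 72.8), a log2 ratio of 5.32 (5.14 to 5.52). Root was its next tissue at 163 FPKM, and the remaining 4 tissues had 13.1 to 59.0 FPKM.

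The most abundant leaf gene, Bol017820 (Scaffold000143, 929116 to 929873; coding length 405 bp), had 388 FPKM in callus (371 to 406) and 16016 FPKM in leaf (15909 to 16123), a log2 ratio of -5.36. It was abundant in the other shoot tissues, with 3998 FPKM in bud, 3451 in silique, 2821 in stem and 1364 in flower, and lowest in root at 44.9 FPKM. Bol034788 (Scaffold000038, 2103179 to 2104462; coding length 507 bp) was the only gene among the 10 most abundant of both tissues. It had 2535 FPKM in callus (2495 to 2575) and 7331 FPKM in leaf (7266 to 7396), and its log2 ratio of -1.53 stayed inside the 4-fold limit. Root had 4348 FPKM, and the remaining 4 tissues 746 to 1544 FPKM.

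**Figure D4:**
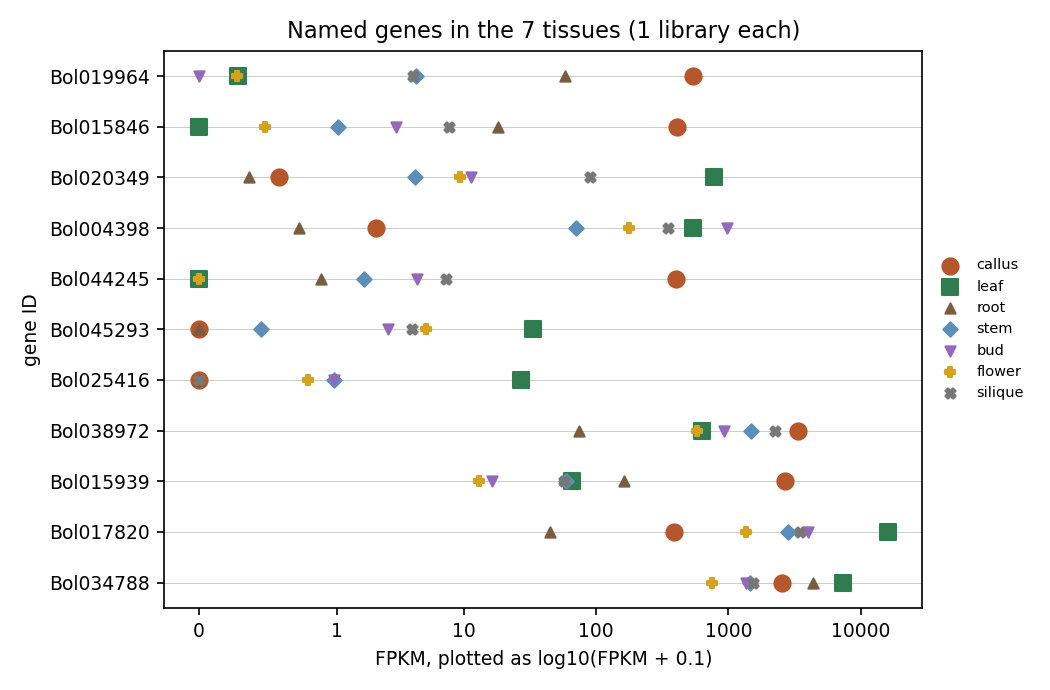
FPKM (x axis, on a log scale as log10(FPKM + 0.1)) of the 11 named genes in each of the 7 tissues, with callus as large brown circles, leaf as large green squares and the other tissues as smaller symbols drawn over them. Callus and leaf lie at or near opposite ends in most rows, while Bol004398 is higher in bud (974 FPKM) than in leaf, and the 7 tissues of Bol034788 lie between 746 and 7331 FPKM.

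The 3103 genes higher in callus were next seen most often in root. Their medians were 20.9 FPKM in callus and 0.847 FPKM in leaf, which the choice of genes fixed, and in the tissues that played no part in the choice 5.16 FPKM in root, 4.54 in stem, 3.83 in flower, 3.46 in silique and 2.92 in bud. Over all genes compared the medians were 4.16 FPKM in root, 4.96 in flower, 5.15 in stem, 6.25 in silique and 6.26 in bud. Trimmed mean rescaling of the 7 columns was followed by a new filter and new calls, so its genes are not the same sets. The genes then higher in callus had medians of 7.38 FPKM in root, 5.53 in stem, 4.52 in flower, 3.35 in silique and 2.60 in bud. Over all genes then compared, each of these tissues had a median of 5.79 to 6.31 FPKM. Root was the highest of these 5 tissues for 1287 of the 3103 genes (41.5%), against 22.8% of all genes compared. Flower was the highest for 740 (23.8%, against 18.1%) and bud for 228 (7.35%, against 25.2%). After the same rescaling and new calls, the share was 46.3% for root, against 31.1% of all genes then compared. It was 24.8% for flower, against 22.3%, and 4.92% for bud, against 16.6%, so the flower share lay near that of all genes. As deposited, the 3103 genes carried 26.1% of the summed FPKM of root, 19.0% of stem, 17.3% of flower, 12.5% of silique and 7.65% of bud. The share in root thus came close to the 26.3% in callus itself. The set was split in root, which was also most often the lowest of the 5, for 873 genes (28.1%, against 37.1% of all genes compared). In root 72.7% of the set had 1 FPKM or more, against 75.1% of all genes compared. In the other tissues outside the choice this share was 68.9% (flower) to 71.9% (silique), against 79.6% (flower) to 84.3% (bud).

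Callus was the highest of all 7 tissues for 1623 of these genes (52.3%), beside 27.9% of all genes compared; the choice of genes bears on this share. In this group the other tissues were low, with medians of 20.5 FPKM in callus, 0.582 in leaf, 2.77 in root and 1.76 to 2.30 FPKM in stem, bud, flower and silique. Root was the highest of the 7 for 663 genes (21.4%, beside 11.8% of all genes compared), whose medians were 22.2 FPKM in callus, 1.09 in leaf and 56.9 in root, against 1.59 FPKM in flower and 2.16 in bud. Flower was the highest for 378 (12.2%, near the 10.9% of all genes compared), with medians of 21.3 FPKM in callus, 1.13 in leaf, 57.7 in flower and 1.90 in root. Stem was the highest for 230 (7.41%, near the 7.22% of all genes compared), silique for 130 (4.19%, beside 9.14%) and bud for 79 (2.55%, beside 11.0%). The choice of genes bears on all of these shares. Leaf could not be the highest in this set, but was so for 22.1% of all genes compared. Leaf was the lowest of the 7, with no tie, for 1118 genes (36.0%, beside 10.2% of all genes compared), which the choice of genes also favours, and 485 genes (15.6%) had callus as the highest and leaf as the lowest tissue. At least 4-fold above all 6 organs were 381 (12.3%), where the choice of genes had already set the limit over leaf. Shares over all genes compared were not counted for the 485 and the 381 genes.

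The 1361 genes higher in leaf were next seen most often in bud. Their medians were 2.36 FPKM in callus and 23.3 FPKM in leaf, and in the tissues that played no part in the choice 11.1 FPKM in bud, 7.03 in silique, 6.69 in stem, 4.20 in flower and 1.33 in root. Bud was the highest of these 5 tissues for 633 genes (46.5%), against 25.2% of all genes compared, and root for 84 (6.17%, against 22.8%). After trimmed mean rescaling of the 7 columns, the genes were filtered and called again. The shares were then 37.99% for bud, against 16.6% of all genes then compared, and 9.40% for root, against 31.1%. As deposited, root was the lowest of the 5 for 773 of the 1361 genes (56.8%, against 37.1%). The genes were at 1 FPKM or more in root for 54.4% of the set, below the 75.1% of all genes compared, and in bud for 91.6%, above 84.3%. In silique (82.6% against 83.2%), stem (81.0% against 79.9%) and flower (80.0% against 79.6%) the shares were near those of all genes. They carried 10.5% of the summed FPKM in bud and 3.62% in root.

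Leaf was the highest of all 7 tissues for 992 of these genes (72.9%, beside 22.1% of all genes compared), a share that the choice of genes favours. Their medians were 2.29 FPKM in callus, 23.2 in leaf, 8.28 in bud, 5.06 in silique, 4.31 in stem, 3.29 in flower and 1.24 in root. Bud was the highest for 156 genes (11.5%, near the 11.0% of all genes compared) and silique for 81 (5.95%, beside 9.14%). Stem was so for 78 (5.73%, beside 7.22%), flower for 37 (2.72%, beside 10.9%) and root for 17 (1.25%, beside 11.8%). The choice of genes bears on these shares too, as callus could not be the highest here but was for 27.9% of all genes compared. Callus was the lowest of the 7, with no tie, for 293 genes (21.5%, beside 4.36% of all genes compared), a share the choice of genes favours. Root was the lowest for 614 (45.1%, beside 32.2%), where the choice of genes kept leaf from being the lowest and so bears on this share as well. Leaf was the highest and callus the lowest for 184 genes (13.5%), and 149 (10.9%) were at least 4-fold higher in leaf than in all other tissues. The choice of genes bears on both counts, and their shares over all genes compared were not counted.

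**Figure D5:**
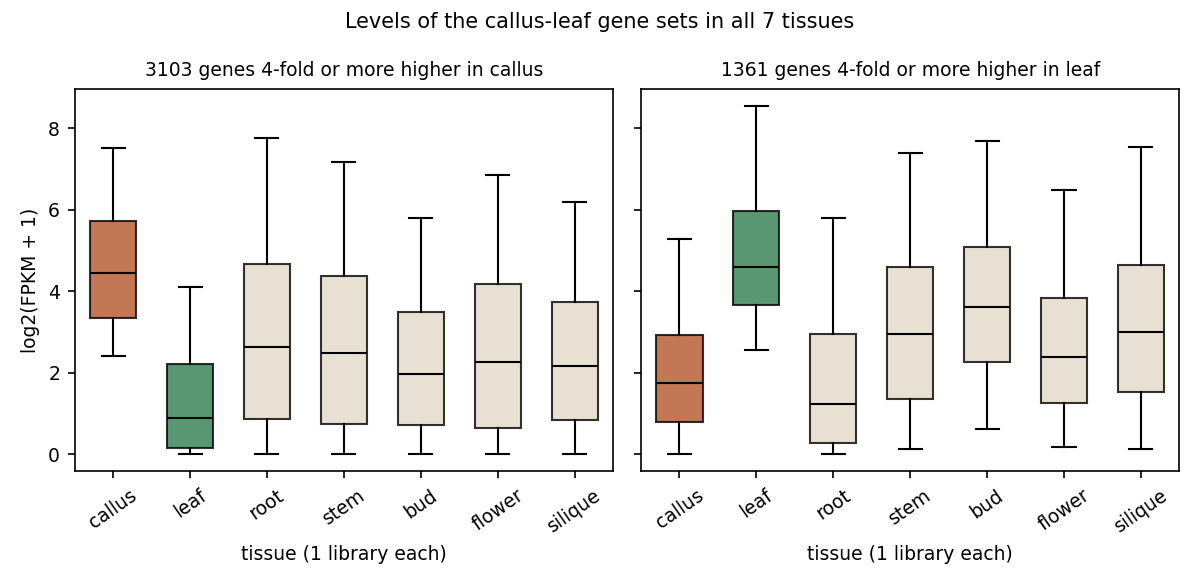
Levels as log2(FPKM + 1) (y axis) of the 3103 genes higher in callus (left panel) and the 1361 genes higher in leaf (right panel) in each tissue (x axis, 1 library each); boxes span the quartiles with the median as a line, and whiskers run from the 5th to the 95th percentile. The callus and leaf boxes differ by choice of the genes; among the other tissues the left panel is highest in root by median (5.16 FPKM) and the right panel in bud (11.1 FPKM), with root lowest (1.33 FPKM).

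Set beside the other organs, leaf fell within their range in its share of genes that differed from callus. Genes at least 4-fold apart from callus in either direction made up 17.4% of those compared for flower, 17.1% for bud, 16.7% for root, 16.6% for leaf, 14.4% for silique and 14.2% for stem. On the deposited scaling, the larger number on the callus side was not particular to leaf. It held against every organ, from 3580 against 748 of 25984 genes for root to 2548 against 2305 of 28434 for bud. Trimmed mean rescaling of all tissues together shifted callus by -0.42 and bud by -0.17 on the log2 scale. The counts against organs other than leaf were not made again under another scaling, so whether callus stays ahead of bud was not tested. All of these comparisons share the callus library, and no test of the differences between them was possible. From the side of leaf, 22.3% of genes were 4-fold apart from root, 19.5% from flower, 13.6% from stem, 11.9% from silique and 11.4% from bud, so callus lay between flower and stem.

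Genes called in either direction were shorter than the genes compared as a whole. The median coding length was 951 bp for genes higher in callus, 843 bp for genes higher in leaf and 1023 bp over all genes compared with an implied length. The median locus spanned 1612, 1421 and 1877 bp in the same order. By coding length, 15.1% of genes under 300 bp were higher in callus and 7.69% higher in leaf, against 6.93% and 1.86% of genes of 2400 bp or more. The median of the higher value was 6.83 FPKM in the shortest class and 9.63 FPKM in the longest, and fewer fragments stand behind a given FPKM in short genes.

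Intronless genes entered the comparison mostly through callus. Among 445 intronless genes, 137 (30.8%) passed the limit towards callus and 19 (4.27%) towards leaf, beside 11.5% and 5.05% of all genes compared. However, 299 of the 445 (67.2%) had 1 FPKM or more in callus alone, against 14.1% of all genes compared. Among the genes that entered through callus alone, the share higher in callus was 42.5% of intronless genes and 42.7% of all genes. Among those with 1 FPKM or more in both tissues, 10 of 76 intronless genes (13.2%) were higher in callus, against 6.94% of all. The 137 genes had medians of 8.86 FPKM in callus, 0 in leaf and 4.04 in root, and of 0.0531 to 0.222 FPKM in stem, bud, flower and silique. The 2931 genes with introns that were higher in callus had medians of 22.0 FPKM in callus, 0.974 in leaf and 5.32 in root, and of 3.36 to 4.85 FPKM in the other 4 tissues. Of 2151 intronless genes in the table, 375 reached 1 FPKM in callus, 146 in leaf, 308 in root, 306 in silique, 173 in stem, 105 in flower and 73 in bud. Of the numbers in the gene IDs, 6361 had no row, and whether intronless genes are among them is not known, so these shares hold for the analysed rows alone.

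Neighbours of a called gene were called in the same direction at a higher rate than neighbours of compared genes at large. A compared gene next to a gene higher in callus was itself higher in callus in 16.3% of 4344 cases, against 11.5% next to any compared gene. Next to a gene higher in leaf, 8.43% of 1875 compared neighbours were higher in leaf, against 4.96% next to any. With overlapping loci left out, the shares were 15.6% of 3985 cases against 11.7% for callus and 7.28% of 1703 against 5.01% for leaf. Leaving out rows also makes other rows adjacent, and the part played by overlap was not tested. Neighbours are adjacent rows of the table, so genes with no row there could separate them. In all, 354 adjacent pairs were higher in callus, holding 655 genes (21.1% of the 3103), 79 were higher in leaf, holding 150 genes (11.0% of the 1361), and 184 had opposite directions.

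The longest runs of neighbours held 5 genes higher in callus and 3 higher in leaf, with more genes called towards callus (11.5% against 5.05%). Of 301 runs of 2 or more genes higher in callus, 45 (15.0%) had 3 or more, and of 71 runs higher in leaf, 8 (11.3%). The run on Scaffold000121_P1 from 157366 to 203321 held 5 genes whose loci do not overlap. In order they had 5.58, 60.2, 109, 5.42 and 157 FPKM in callus, against 0, 0.225, 0.314, 0 and 1.13 FPKM in leaf. In root they had 5.91, 11.0, 6.96, 0.214 and 24.1 FPKM. The fourth value was 1 fragment, below the 0.636 FPKM that 3 fragments would give in leaf, and the other 4 were above the leaf level. The run on Scaffold000172_P1 from 164824 to 207484 had 227, 33.3, 24.3, 9.18 and 25.1 FPKM in callus, against 0, 5.71, 2.48, 0.878 and 2.88 FPKM in leaf. Its genes differed in the other tissues, as the next highest level was in root for the first gene (13.9 FPKM) while flower exceeded callus for the second (60.6 FPKM), bud for the third (30.3 FPKM) and root for the fifth (61.2 FPKM).

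Among the runs higher in leaf, that with the largest summed leaf level lay on Scaffold000114 from 395693 to 400216. Its 3 genes had 146, 13.2 and 95.9 FPKM in callus, against 1393, 64.6 and 556 FPKM in leaf. Their loci overlap, so fragments may be shared between them. The run with the largest leaf level among those with no overlap lay on Scaffold000467 from 23487 to 27199, with 7.75, 0.504 and 17.7 FPKM in callus, against 196, 14.7 and 79.3 FPKM in leaf. Stem was the next tissue for its first gene (89.5 FPKM), bud for the second (3.896 FPKM), and root exceeded leaf for the third (158 FPKM). These runs were picked from 8 of equal length after their values were seen.

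The called genes were spread over the scaffolds. Among 70 scaffolds with 100 or more genes compared, 5.56% to 19.2% of genes were higher in callus, with a median of 11.3%, and 0.917% to 11.7% higher in leaf, with a median of 4.85%. More genes were higher in callus than in leaf on 67 of the 70.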

How the data were processed

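Poly(A)+ RNA of 7 tissues was sequenced as paired ends, 1 library per tissue, from 20 µg of total RNA, fragments of 200 ± 20 bp and 15 PCR cycles, per the labels' protocols. Per the file headers, the deposited values are FPKM with their bounds, and the first line says which column is which tissue. The submitters' processing notes name TopHat 1.0.13. Not given in the sources used here are the genome build, the annotation and the program behind the table. Starts are those of the table raised by 1.

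Fragments behind a value were inferred by reading the distance from FPKM to its deposited upper bound as 2 standard deviations of a count. In callus 85.3% and in leaf 88.8% of values above 0 were then whole, to within 0.02 or, where wider, 3e-06 times n to the power 1.5, with n the count. Coding lengths followed for 36488 genes, 99.0% of them multiples of 3, so they hold no UTRs. A gene was called intronless where coding length and locus span agreed within 0.2%. A value listed at 0 was bounded by 3 fragments in that library. PCR copies were not marked, and both intervals and floors take in counting error alone.

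No test was possible with 1 library per tissue, and no p-value was computed. The rule for named genes took 2 IDs per direction, with 10 FPKM or more in either tissue for the largest ratios. The members, rules and lists were chosen with earlier results of these data known. Of the gene IDs, 0 matched the RefSeq table of 53125 genes (assembly BOL), so the 2 marker lists, for leaf photosynthesis and dividing cells, had 0 members. Alternatives were other pseudocounts, filters, fold limits and scalings, among them trimmed means (with 30% of ratios and 5% of abundances removed at either end). Steps were tested on simulated counts. Python 3.11.15, numpy 2.4.6 and scipy 1.17.1 were used.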

Additional observations from a re-analysis of the deposited data

How the results depend on the processing

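No paired analysis was possible because callus and leaf are 1 library each. The balance of 4-fold counts towards callus, the sign of the median and the signs of the 11 named genes did not turn under the alternatives tried. The balance at 300 FPKM or more did, with 60 genes for callus and 85 for leaf as deposited and 93 and 81 per fragment in gene models. For genes higher in leaf, silique stood above stem as deposited (medians of 7.03 and 6.69 FPKM, highest for 20.1% and 19.1%) and below it after trimmed mean rescaling (7.31 and 9.08 FPKM) and at 8-fold (17.6% and 22.7%). Among values bearing on a comparison, 48 stayed close (counts within 1.5 times, other values within a binomial interval over genes) and 45 moved. For the log2 ratios of named genes 38 stayed, within the wider side of the interval from the deposited bounds, and 28 moved. Some outcomes were fixed in advance. A call needs 3 FPKM, so lifting the filter could not change the called genes, and another fold limit changes their number by construction. An interval over genes does not measure the spread between libraries. The alternative per fragment in gene models was chosen after the data were seen. The causes of these moves were not tested beyond the construction of each alternative.

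Genes higher in callus numbered 4868 with a pseudocount of 0.1, 7377 at 2-fold and 1486 at 8-fold, and genes higher in leaf 2347, 4437 and 466. Callus held 67.5% of the called genes with a pseudocount of 0.1, 62.4% at 2-fold, 76.1% at 8-fold, 63.6% after upper quartile rescaling, 62.0% with trimmed means and 74.2% per fragment in gene models. The median log2 ratio was 0.27 with a pseudocount of 0.1, 0.17 with no filter, 0.0664 after upper quartile rescaling, 0.0193 with trimmed means and 0.38 per fragment in gene models. Neighbouring pairs at 8-fold were 123 for callus and 17 for leaf.

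For genes higher in callus at 8-fold, root was the highest of the other 5 tissues for 45.4%, and the medians were 7.02 FPKM in root and 2.56 in bud. After trimmed mean rescaling of the 7 columns, the genes were called again in both directions. For those then higher in callus the shares were 46.3% for root, 4.92% for bud and 9.49% for silique. Their medians were 7.38 FPKM in root, 5.53 in stem, 2.60 in bud and 4.52 in flower. For genes higher in leaf at 8-fold, the shares were 3.86% for root, 22.7% for stem, 6.65% for flower and 17.6% for silique, and the medians 0.905 FPKM in root, 8.15 in stem, 15.8 in bud and 5.05 in flower. After trimmed mean rescaling the shares were 9.40% for root, 25.9% for stem, 37.99% for bud, 9.93% for flower and 16.7% for silique, and the medians 2.27 FPKM in root, 9.08 in stem and 5.70 in flower. Depth limits the low values: the median gene higher in callus rested on 245 fragments in callus and 11.0 in leaf, and the median gene higher in leaf on 25.0 in callus and 291 in leaf.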
